A study of Mus musculus with 2 samples.

Results

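The genes of oxidative phosphorylation were followed through the bone marrow of naive mice and of mice that had been given Listeria. Members were every gene whose symbol began with mt-, Nduf, Uqcr, Cox4 to Cox8 or Atp5, together with Sdha, Sdhb, Sdhc and Sdhd. The rule took 106 of the 31053 genes in the deposited tables, 13 encoded by mitochondrial DNA and 93 by nuclear DNA, and used no measured value. All 13 mitochondrial members and 90 of the 93 nuclear members had at least 1 UMI (unique molecular identifier, which counts captured transcripts) in the kept cells. Cox8b, Cox8c and 1 of the 2 gene identifiers named Atp5o had none.

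The material was 1 droplet-based single-cell library labelled as hematopoietic stem cells (HSCs) of untreated mice and 1 of mice 6 weeks after challenge with Listeria monocytogenes, an intracellular bacterium. Both came from femur and tibia marrow of wild-type C57BL/6J mice aged 6 to 8 weeks. A name under which the second library was deposited refers to a knockout, while its labels give wild-type mice, and it is called the Listeria library throughout. The labels do not give the number of mice or a sort, and with 1 library a group no test between naive and Listeria mice was possible.

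Oxidative phosphorylation makes ATP in the inner mitochondrial membrane. Complexes I and II pass electrons from NADH and succinate through complex III and cytochrome c to complex IV, which hands them to oxygen, and complexes I, III and IV pump protons that drive the ATP synthase, complex V. Complexes I, III, IV and V are each built from subunits of both genomes, whereas all subunits of complex II, which is also an enzyme of the citric acid cycle, are nuclear. HSCs are known for quiescence and for a low reliance on respiration compared with the progenitors they give rise to.

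Cells were barcodes with at least 2500 UMIs, at least 500 genes and at most 10% mitochondrial UMIs, 6375 naive and 4839 Listeria cells. The libraries held 64619150 and 43895966 UMIs, and the kept cells had medians of 6972 and 7239. The limit on mitochondrial UMIs removed 216 barcodes, or 3.28%, from the naive library and 54, or 1.10%, from the Listeria library, so it bounds every mitochondrial share below from above. Barcodes with 1 to 50 UMIs, which hold free RNA, were 13.1% mitochondrial by UMI (naive) and 5.13% (Listeria). Cells were assigned to 10 gates by counted marker genes, and 14 kept cells of each library carried a barcode that the other library held too.

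The gates matched their markers only in part. In the HSC gate, 35.8% of naive cells lay at the limit of 3 counted markers, and in the B-lineage gate 0.292%. The share at that limit was 55.1% of naive and 59.3% of Listeria cells in the myeloid progenitor gate, and 72.1% and 89.2% in the antigen-presenting gate. Summed HSC markers (Hlf, Mecom, Procr and others) stood at 1086 CPM (UMIs scaled to an equal total per gate, 1e+06) in the naive and 1056 in the Listeria HSC gate, against 98.9 and 72.7 in the B-lineage gate. Summed B-lineage markers stood at 7234 and 6656 CPM in the B-lineage gate and at 42.4 and 20.1 in the HSC gate. The B-lineage gate held 21.5% of naive and 8.18% of Listeria cells, and of these 71.0% and 81.1% had at least 3 of 8 division markers.

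Some neighbouring mitochondrial members overlap on the mitochondrial chromosome, and a tag from bases shared on 1 strand cannot be assigned to 1 gene. mt-Atp6 and mt-Co3 share base 8607. The ranges of mt-Nd5 (11742-13565, plus strand) and mt-Nd6 (13552-14070, minus strand) overlap too, and the treatment of strand is not given. The 2 overlaps printed here limit what the counts of mt-Atp8, mt-Atp6, mt-Nd4l and mt-Nd4 can say. Positions are in GRCm38, on the plus strand, and capitals mark the bases common to both genes, starting with the start codon of the downstream gene. The first overlap is 43 bases at chrM:7927-7969, printed from 7907 to 7989, and the second is 7 bases at chrM:10167-10173, printed from 10147 to 10193.
mt-Atp8 and mt-Atp6: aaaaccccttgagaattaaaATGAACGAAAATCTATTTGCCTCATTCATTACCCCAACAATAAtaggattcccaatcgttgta
mt-Nd4l and mt-Nd4: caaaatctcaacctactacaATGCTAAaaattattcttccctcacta

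Sequence shared with other genes limits some members further. Windows of 50 bases in the last 400 bases of each member's annotated transcripts were searched in the transcripts of all other genes. For mt-Co1 and mt-Co2 100% of windows, and for mt-Co3 99.7%, mt-Atp6 99.1%, mt-Nd4l 98.8% and mt-Nd3 98.0%, were found exactly in annotated pseudogenes. No window of mt-Nd1, mt-Nd4, mt-Nd6, mt-Cytb or mt-Atp8 was found elsewhere. Of all 106 members, 54 shared no window and 26 shared over 10%. How the counting treated reads that match several genes is not given in the sources used here, so levels of the sharing members are uncertain.

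Of the HSC, multipotent, B-lineage and megakaryocyte-lineage gates, HSC-gated cells carried the smallest nuclear and the largest mitochondrial share. Nuclear members made up 1.20% of UMIs in the naive HSC gate (1484 cells) and 1.21% in the Listeria HSC gate (1264 cells). In the B-lineage gate they made up 1.99% of 1370 naive cells' UMIs and 1.98% of 396 Listeria cells'. Mitochondrial members ran the other way, at 4.47% and 4.08% in the HSC gate against 3.35% and 3.24% in the B-lineage gate. These shares are of summed UMIs, and a lower share can come from fewer transcripts of the members or from more of other genes.

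The ratio of mitochondrial to nuclear member UMIs was 3.74 in the naive HSC gate (95% exact interval of counting error 3.71 to 3.76) and 1.68 in the naive B-lineage gate (1.67 to 1.69), 2.22 times lower. In the Listeria library it was 3.38 (3.35 to 3.40) and 1.64 (1.63 to 1.65), 2.06 times lower. In naive cells the multipotent gate (Cd34, Cd48, Flt3) followed the HSC gate at 3.41, then plasma cells at 2.80, the T and NK gate at 2.58, the megakaryocyte-lineage gate at 2.36, the antigen-presenting gate at 2.29, the myeloid progenitor gate at 2.07, the erythroid gate at 2.01 and the neutrophil-lineage gate at 1.32. In the Listeria library HSC and multipotent cells were again on top, at 3.38 and 2.92, followed by the antigen-presenting gate at 2.62, the T and NK gate at 2.59 and plasma cells at 2.29. The intervals of the antigen-presenting gate (2.56 to 2.67) and the T and NK gate (2.53 to 2.66) overlapped. Without dividing cells, a choice made after seeing the data, the HSC gate exceeded the B-lineage gate by 0.91 in log2 in naive and by 0.73 in Listeria cells, against 1.15 and 1.04 with them. Among cells with no division marker at all the gap was 0.55 and 0.34, with 112 naive and 36 Listeria B-lineage cells.

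The ratio was lower in the deeper cells of the naive HSC and B-lineage gates. In the naive HSC gate the shallower cells (median 5694 UMIs) had 3.96 and the deeper (median 8186) 3.61. In the naive B-lineage gate the shallower (median 6294) had 1.97 and the deeper (median 12519) 1.57. Both B-lineage values lay below both HSC values.

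**Figure D1:**
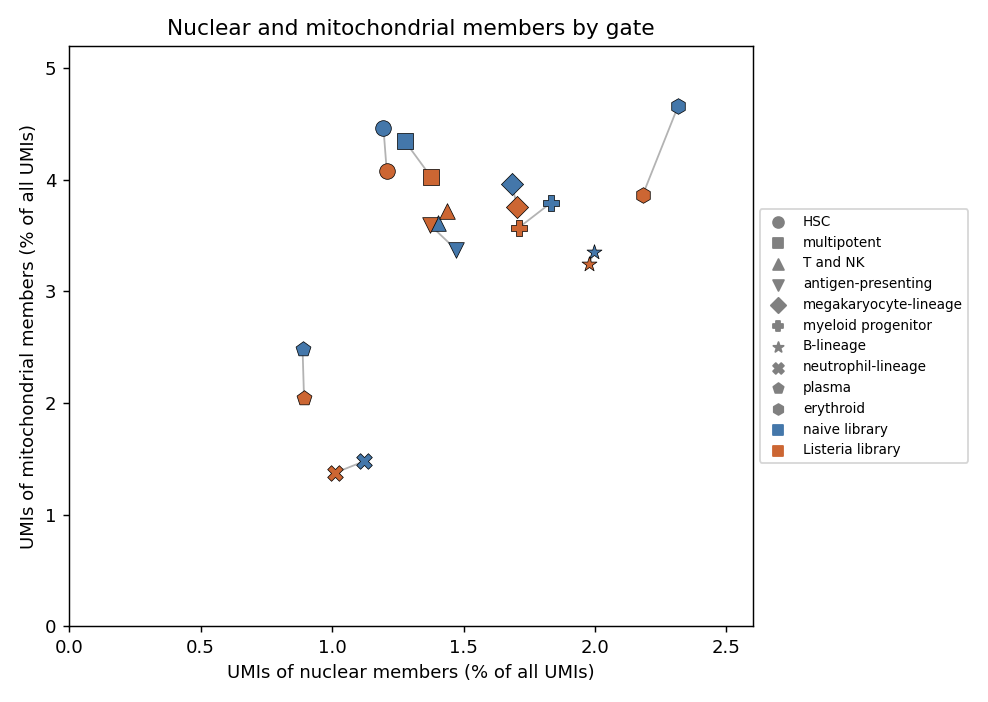
Share of UMIs from mitochondrial members (y axis, % of all UMIs) against that from nuclear members (x axis, %), summed over the cells of each gate. Each symbol is a gate, blue for the naive and orange for the Listeria library, and a grey line joins the libraries. HSC and multipotent cells sit at high mitochondrial and low nuclear shares, B-lineage cells at a nuclear share near 1.99%, and neutrophil-lineage cells at the lowest mitochondrial shares, 1.48% and 1.37%.

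Neutrophil-lineage cells (S100a8, S100a9, Ngp) had a low share of mitochondrial UMIs. Mitochondrial members took 1.48% of UMIs in 97 naive and 1.37% in 86 Listeria cells. The summed markers of this gate stood at 324809 and 314104 CPM in it, and their part in the low shares was not tested. Over single cells the median was 0.68% and 0.54%, and 60.8% and 69.8% of the cells were under 1%, against none of the HSC-gated cells. Plasma cells were the next lowest, at 2.48% of UMIs in 75 naive and 2.05% in 33 Listeria cells, and also had the lowest nuclear shares, 0.888% and 0.893%. The erythroid gate, only 24 and 31 cells, had the highest nuclear shares, 2.32% and 2.18%.

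Member by member, nearly the whole nuclear set rose in B-lineage over HSC-gated cells. UMIs were summed per library and gate, and edgeR's quasi-likelihood test compared each gate with the HSC gate, with the library as a term and Benjamini-Hochberg adjustment over all 11017 genes tested. The 2 libraries stand as replicates although their mice were treated differently. The library term takes up a shift common to all gates. So p-values measure only how the 8 fitted gates vary between these 2 libraries beyond that shift. Of 86 nuclear members tested, 77 rose and 2 fell in B-lineage cells at an adjusted p under 0.05, with a median log2 fold change of 0.91. Of all genes, 33% were higher and 32.4% lower, with a median of 0.00. Of the 13 mitochondrial members, 1 rose and 6 fell, with a median of -0.16.

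With dividing cells included, the rise ran through every complex. In complex I, the NADH dehydrogenase, 34 of 36 nuclear subunits rose. Ndufs5, an accessory subunit, stood at 60.4 and 56.3 CPM in the naive and Listeria HSC gates and at 209 and 203 in the B-lineage gates, a log2 fold change of 1.93 ± 0.13 (SE, adjusted p = 1.80e-11), and 42.6% of its windows are shared with other genes. Ndufs6, an accessory subunit, rose from 36.5 and 48.4 to 143 and 153 CPM, by 1.92 ± 0.17 (adjusted p = 1.17e-09). Ndufs7 (log2 0.30, adjusted p = 0.067) and Ndufa6 (-0.09, adjusted p = 0.50) did not pass.

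All 4 subunits of complex II rose in B-lineage cells. Sdhb, the iron-sulfur subunit, stood at 40.1 and 52.7 CPM in the HSC gates and at 119 and 140 in the B-lineage gates, so the groups did not overlap (log2 1.59 ± 0.14, adjusted p = 8.79e-10). Sdhd and Sdhc, the membrane anchors, rose by 1.26 and 0.81. Sdha, the catalytic flavoprotein, rose least, by 0.42 (adjusted p = 0.0032), from 76.2 and 71.3 to 90.9 and 93.4 CPM. In complex III, the cytochrome c reductase, 7 of 8 members rose and 1 fell. Uqcrq led with 1.34, and Uqcrh, the hinge protein, fell from 674 and 559 CPM in the HSC gates to 493 and 454 in the B-lineage gates (-0.27 ± 0.11, adjusted p = 0.037). With a gate of at least 4 markers Uqcrh did not pass (-0.23).

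In complex IV, cytochrome c oxidase, 12 of 13 nuclear members tested rose and 1 fell. Cox6a1, the common form of subunit 6A, rose from 43.1 and 107 CPM in the HSC gates to 275 and 312 (log2 2.17 ± 0.21, adjusted p = 9.12e-09). Cox7b rose from 45.3 and 101 to 252 and 306 CPM (2.11 ± 0.23, adjusted p = 3.89e-08). Cox6a2 had the largest value of all, 2.50 ± 0.83 (adjusted p = 0.012), from 9 and 0 UMIs in the HSC gates and 32 and 16 in the B-lineage gates, so it rests on few counts. For Cox6a1 and Cox7b the naive HSC gate was the lowest of the 4 sums, and the Listeria HSC gate stood between it and the B-lineage gates. Cox6b2, a form of subunit 6B best known from testis, was the member that fell, from 28.1 and 27.0 CPM to 15.8 and 10.1 (-0.93 ± 0.21, adjusted p = 5.28e-04).

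All 15 complex V members tested rose. Atp5o, the stalk subunit that confers oligomycin sensitivity, went from 48.2 and 98.4 CPM in the HSC gates to 247 and 307 in the B-lineage gates (log2 2.09 ± 0.21, adjusted p = 1.19e-08), and 24.5% of its windows are shared with other genes. Atp5g1, Atp5g2 and Atp5g3 all encode the same c-ring protein after import, and rose by 1.33, 0.68 and 1.19. Of their windows 39.9%, 51.4% and 0% are shared with other genes. Atp5b, the catalytic beta subunit, rose by 0.98. Of the 8 complex I assembly factors, 5 rose. Cox7a2l, which helps join complexes III and IV, did not pass (0.05, adjusted p = 0.73), at 531 and 507 CPM in the HSC gates and 508 and 486 in the B-lineage gates. With dividing cells left out it did pass in the edgeR test, and rose by 0.40 (adjusted p = 0.0021).

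**Figure D2:**
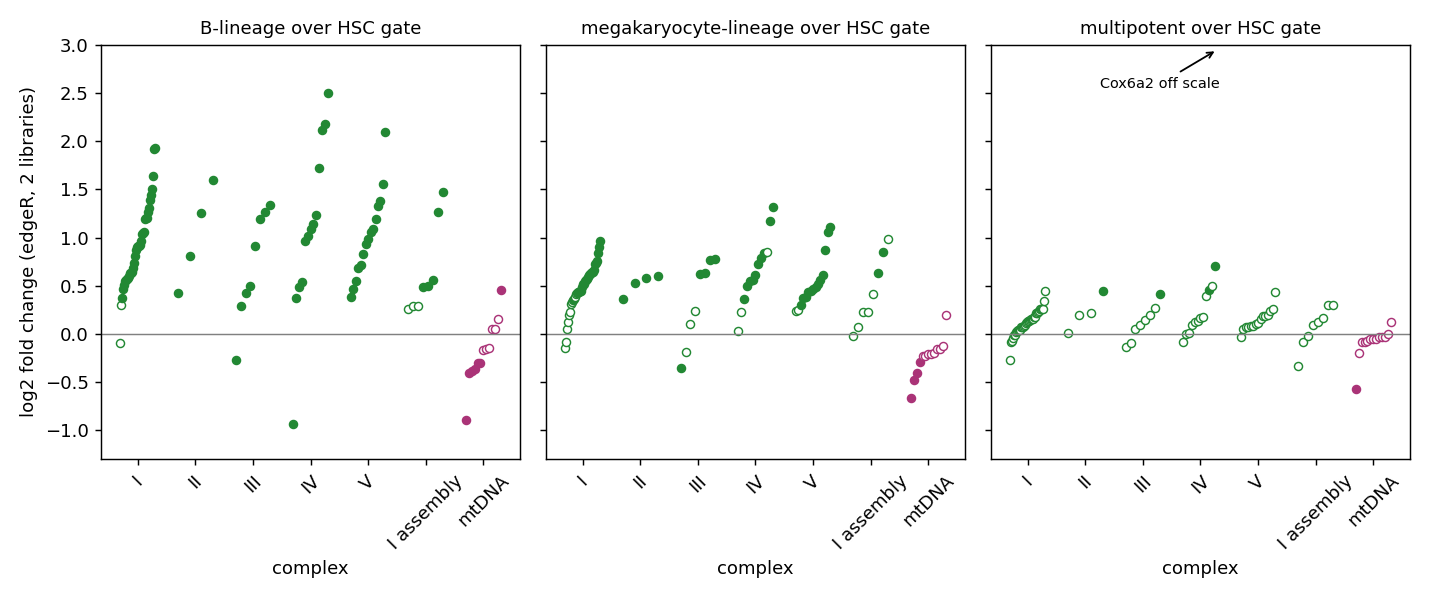
Log2 fold change (y axis) of each tested member in the B-lineage, megakaryocyte-lineage and multipotent gates over the HSC gate, by complex (x axis), with the 13 mitochondrial members under mtDNA; Atp5s and Cox7a2l belong to no listed group and are not drawn. Filled points passed an adjusted p under 0.05. Nearly all nuclear members lie above 0 in the left panel, with a median of 0.91, while the mitochondrial members scatter around -0.16; Cox6a2, at 6.29, lies beyond the scale of the right panel.

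Without dividing cells, 55 of 83 nuclear members tested still rose in B-lineage cells and 2 fell, with a median of 0.56, where 24.4% of all 9569 genes tested were higher and 24.4% lower. The mitochondrial members came to 1 higher and 7 lower. Cox6a1 (1.85), Cox7b (1.76) and Atp5o (1.74) stayed high, and Uqcrh (-0.26) and Cox6b2 (-0.77) stayed low. Sdha (0.28) and Sdhc (0.21) of complex II no longer passed, nor did Atp5c1 (0.16), Atp5d (0.19) and Atp5g2 (0.25) of complex V. Members of complexes I, III and IV dropped out as well, so the rise of whole complexes held only with dividing cells included. Genes around the pathway were described from lists chosen with earlier results of these data known, in the fit that includes dividing cells. In that fit 33% of all genes were higher and 32.4% lower. Of 77 mitochondrial ribosomal proteins tested, which translate the mitochondrial members, 70 were higher and 2 lower, with a median of 0.86. Cycs and Cyc1, the mobile cytochrome c and the cytochrome c1 of complex III, rose by 1.47 and 1.34. Of 14 citric acid cycle genes 10 were higher and 1 lower, and of 33 assembly factors outside the rule 15 were higher and 2 lower. Of 14 genes that copy and transcribe mitochondrial DNA 6 were higher and 2 lower, among them Tfam, a packaging and transcription factor of that DNA, which rose by 0.46 (adjusted p = 0.010).

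By median nuclear log2 fold change, the myeloid progenitor, megakaryocyte-lineage, T and NK, antigen-presenting and multipotent gates stood between the HSC and B-lineage gates. The gate of myeloid progenitor markers (Mpo, Elane) held 22226 and 14659 CPM of these markers but 48321 and 25936 CPM of the neutrophil-lineage list, which stood at 102 and 68.1 CPM in the HSC gate, and the part of neutrophil-lineage RNA in its values was not tested. In this gate 68 nuclear members rose and 1 fell over the HSC gate, with a median of 0.74, where 20.4% of all genes were higher and 17.6% lower. In megakaryocyte-lineage cells (Pf4, Itga2b) 59 rose and 2 fell, with a median of 0.52, against 16.6% and 19.6% of all genes. T and NK cells had 23 higher and 2 lower (median 0.23, against 15.2% and 16.4%), and antigen-presenting cells 20 and 1 (median 0.26, against 9% and 5.04%). The multipotent gate, nearest to the HSC gate, had 5 higher and none lower (median 0.13, against 8.7% and 9.92%), with 11 nuclear members at an unadjusted p under 0.05. Its count of higher members was 18 with only the compared gates in the fit, 9 with gates of at least 4 markers and 1 without the library term. The shares of all genes called under these settings are not given here. These counts therefore show only that the number depends on the setting.

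The highest members in megakaryocyte-lineage cells were Cox6a1, Cox7b and Atp5g1, of which the former 2 were also among the 3 highest in B-lineage cells. Cox6a1 rose by 1.32 ± 0.22 (adjusted p = 5.55e-05), Cox7b by 1.17 ± 0.23 (adjusted p = 4.01e-04) and Atp5g1 by 1.11 ± 0.12 (adjusted p = 3.64e-07). Atp5g1 stood at 136 and 149 CPM in the HSC gates and at 329 and 325 in the megakaryocyte gates. Cox6b2 was higher than in the HSC gate by 0.79 (adjusted p = 0.0045), at 51.5 and 49.96 CPM, the opposite direction to B-lineage cells. Cox7a2l fell by 0.45 (adjusted p = 0.0030), from 531 and 507 to 421 and 390 CPM, and Uqcrh fell by 0.35 (adjusted p = 0.016).

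In the multipotent gate the members that rose were Cox6a2, Cox7b (0.71 ± 0.22, adjusted p = 0.030), Cox5a (0.45 ± 0.14, adjusted p = 0.022), Sdhb (0.45, adjusted p = 0.024) and Uqcrc1 (0.41, adjusted p = 0.029), a core protein of complex III. Cox5a stood at 136 and 138 CPM in the HSC gates and 423 and 414 in the B-lineage gates, where it rose by 1.72. Cox6a2, the form of subunit 6A best known from muscle, had a fitted value of 6.29 that depends on the prior count, because the Listeria HSC gate held 0 of its UMIs.

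Cox6a2 was a matter of few cells. It had 16.4 CPM in all naive and 3.80 in all Listeria cells. In the multipotent gate 161 of 1249 naive and 46 of 912 Listeria cells had a UMI of it, and the highest naive cell held 38. Cells with at least 3 UMIs of Siglech, a receptor of plasmacytoid dendritic cells, numbered 39 (naive) and 5 (Listeria) and held 36.8% and 7.38% of its UMIs, at 1069 and 293 CPM against 10.4 and 3.52 elsewhere. Of these cells 20 naive and 1 Listeria cell were in the multipotent gate, and 10 and 3 in the antigen-presenting gate. The number of Siglech cells moved with the level of Cox6a2 between the libraries, and their part in the difference was not tested.

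In neutrophil-lineage cells all 13 mitochondrial members fell, with a median of -1.06, while 43 nuclear members rose and 8 fell (median 0.47), where 24.9% of all genes were higher and 27.5% lower. Ndufb7, an accessory subunit of complex I, led with 2.03, and Ndufaf2, a complex I assembly factor, fell most, by 2.58. The sign of the nuclear median depended on the scaling. With total UMIs in place of edgeR's TMM factors the median of all genes moved from -0.23 to -0.84, the nuclear median turned to -0.14 and 21 nuclear members rose and 32 fell, against 15.3% of all genes higher and 48.4% lower. The nuclear median stood above that of all genes under both scalings. The mitochondrial median was -1.67, and all 13 still fell. In the other gates this change of scaling moved the median of all genes by over 0.1 in B-lineage cells, from 0.00 to -0.11, where the nuclear median was 0.80, and in myeloid progenitors, from -0.02 to -0.16, where it was 0.59.

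The 13 mitochondrial members did not move as 1 block. mt-Nd1, a complex I subunit, stood at 1384 and 1394 CPM in the HSC gates and 1754 and 1783 in the B-lineage gates. It rose in B-lineage cells (0.46 ± 0.12, adjusted p = 0.0017), in T and NK cells (0.52, adjusted p = 0.0017) and in myeloid progenitors (0.31, adjusted p = 0.039), where no mitochondrial member rose with total UMIs. mt-Cytb, of complex III, fell by 0.41 in B-lineage cells (adjusted p = 0.0021), and mt-Co1, the catalytic core of complex IV, by 0.38 (adjusted p = 0.0017). mt-Atp8 (0.06), mt-Nd4l (0.05) and mt-Nd5 (0.15) did not pass in B-lineage cells. The values for mt-Atp8 and mt-Nd4l turn negative with total UMIs, with size factors, with DESeq2 and without dividing cells.

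mt-Nd6 was the lowest of the 13 in B-lineage cells. It is the complex I subunit encoded on the opposite strand from the other 12. It stood at 105 and 79.3 CPM in the HSC gates, 71.8 and 52.8 in the megakaryocyte gates and 51.5 and 40.9 in the B-lineage gates. The fall was 0.89 ± 0.17 in B-lineage cells (adjusted p = 9.37e-05), and it passed in every other gate but the antigen-presenting one (-0.59). Summed by complex, mitochondrial complex I UMIs were lower in B-lineage than in HSC-gated cells by 0.17 (naive) and 0.10 (Listeria) on the log2 scale, while those of complex IV were lower by 0.43 and 0.35, and of complex III by 0.54 and 0.50.

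**Figure D3:**
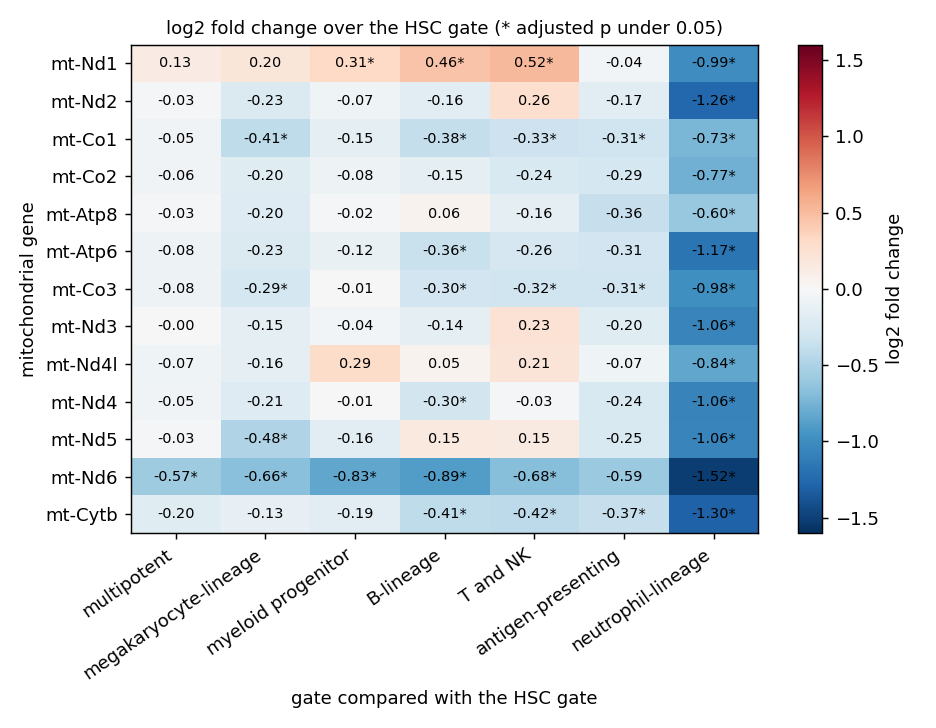
Log2 fold change over the HSC gate of each mitochondrial member (rows, in map order) in 7 gates (columns), printed in each cell and coloured from blue (lower) to red (higher), with a star where the adjusted p was under 0.05. mt-Nd6 is below 0 in all 7 gates, mt-Nd1 is red in B-lineage, T and NK and myeloid progenitor cells, and the neutrophil-lineage column is blue for all 13.

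Dividing cells of the same gate carried more nuclear members. In the multipotent, B-lineage and megakaryocyte-lineage gates, the fit of cells with at least 3 division markers (Mki67, Top2a and others) over the rest found 33 nuclear members higher and 3 lower, with a median of 0.23, where 12.3% of all genes were higher and 12.3% lower. Of the mitochondrial members none rose and mt-Co1 fell (-0.22, adjusted p = 0.0069). At an unadjusted p under 0.05 the mitochondrial members below 0 included mt-Atp6, mt-Co3, mt-Nd5, mt-Nd6 and mt-Cytb. Cox6a1 led the nuclear members (0.54 ± 0.11, adjusted p = 8.69e-04), followed by Ndufs6 (0.48) and Sdhc (0.47). Cox7a2l (-0.36), Ndufa6 (-0.28) and Uqcrh (-0.26) fell.

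The ratio of mitochondrial to nuclear UMIs was highest in cells with no division marker, lower with 1 or 2 and lowest in dividing cells in both libraries, in the 5 gates with at least 20 cells in all 3 states. Other gates did not all run this way. Naive neutrophil-lineage cells had 1.39 when dividing and 1.12 with no marker, and Listeria T and NK cells had 2.94 with 1 or 2 markers and 2.66 with none. In the naive myeloid progenitor gate it was 3.38, 2.48 and 1.53, and in the Listeria library 3.11, 2.48 and 1.44. In the B-lineage gate it was 2.58, 1.88 and 1.61, and 2.85, 1.72 and 1.59. Over the 5 naive gates it ran from 2.58 to 3.78 in cells with no division marker and from 1.53 to 3.24 in dividing cells. Deeper cells count more markers: naive HSC-gated cells had median UMIs of 6545 with none, 7117 with 1 or 2 and 12889 with 3 or more, and the part of depth was not tested.

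**Figure D4:**
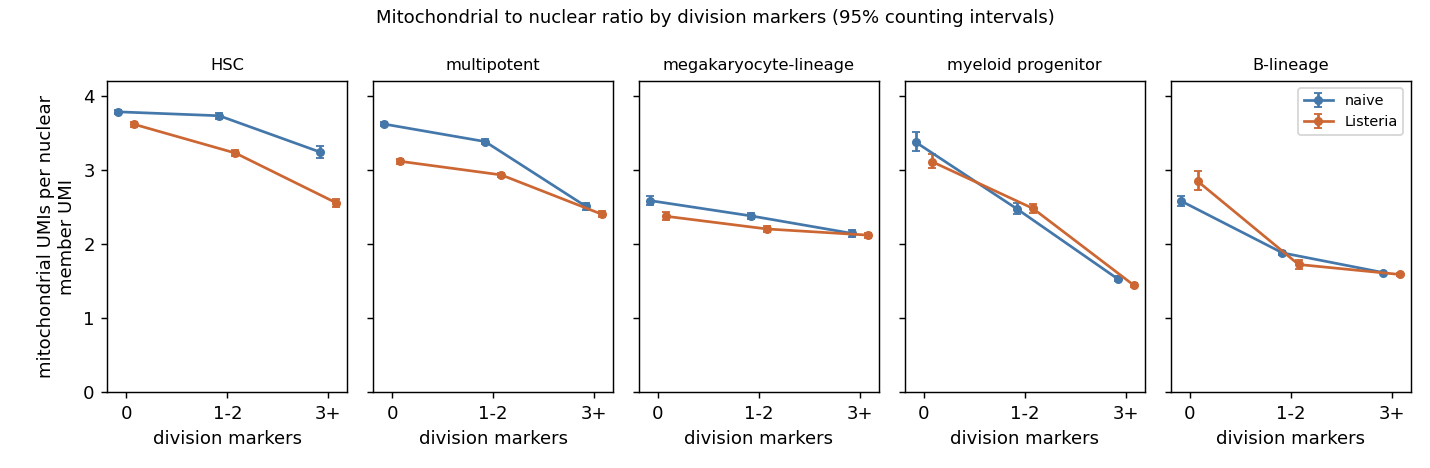
Mitochondrial UMIs per UMI of a nuclear member (y axis) in cells with 0, 1 or 2, and 3 or more of 8 division markers (x axis), for the 5 gates with at least 20 cells in every state, naive in blue and Listeria in orange. Bars are 95% exact intervals of counting error. The ratio is lower at each step to the right in every panel, from 3.38 to 1.53 in naive myeloid progenitors.

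Across single cells the shares of mitochondrial and nuclear members had no common pattern. Spearman's rho was -0.08 over 1484 naive and 0.06 over 1264 Listeria HSC-gated cells, and -0.25 over 1370 naive and 0.01 over 396 Listeria B-lineage cells. In neutrophil-lineage cells it was 0.69 and 0.43 (97 and 86 cells), and in myeloid progenitors -0.57 and -0.36 (107 and 162 cells). Cells of a library share its free RNA, both shares have the same total as denominator, and both move with depth, so these values are a description only.

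Between the libraries the pooled ratio hardly differed, at 2.66 in all naive and 2.67 in all Listeria cells. The myeloid progenitor gate hardly differed either, at 2.07 and 2.09 (log2 0.01, 95% counting interval -0.02 to 0.04), while some other gates did. In Listeria cells the ratio was higher by 0.19 in log2 in the antigen-presenting gate (95% counting interval 0.15 to 0.24). It was lower by 0.15 in the HSC gate (-0.16 to -0.13) and by 0.22 in the multipotent gate (-0.24 to -0.21). It was also lower by 0.10 in the megakaryocyte-lineage gate (-0.12 to -0.07) and by 0.04 in the B-lineage gate (-0.05 to -0.02). The B-lineage gate, where the ratio is lowest of these, held 8.18% of Listeria against 21.5% of naive cells. The mitochondrial share of the HSC gate was 0.39 percentage points lower in Listeria cells. The size and sign of this difference changed with the amount of free RNA assumed. Free RNA was richer in mitochondrial UMIs in the naive library. With an assumed 5% of each cell subtracted as free RNA the difference was 0.011 points, and with 10% it was 0.45 points the other way. The share of free RNA in a cell was not measured, and its part in the difference was not tested.

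Few nuclear members differed over all cells. A gene was called where the log2 ratio of CPM passed 0.32 in size and 1 or both libraries reached 10 CPM. By that rule 2 of 83 nuclear members were higher and 3 lower in Listeria cells, against 15.1% and 8.62% of all genes. Of the 13 mitochondrial members none was higher and 1 was lower. Ndufs5 (108 and 77.2 CPM in naive and Listeria cells) and Ndufc1 (95.6 and 71.5), both accessory subunits of complex I, were lower by 0.49 and 0.42 in log2. Within the B-lineage gate, where both are high, they differed by -0.04 and -0.09, and within the HSC gate by -0.10 and -0.11.

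Within the HSC gate 8 of 82 nuclear members were higher and 1 was lower in the Listeria library, against 22.6% and 5.97% of all genes, and of the mitochondrial members none was higher and 2 were lower. The nuclear median was 0.02 where that of all genes was 0.12, and it turned to -0.072 with TMM factors, -0.087 with size factors and -0.0033 without dividing cells. Cox6a1 had 43.1 CPM in naive and 107 in Listeria HSC-gated cells, a log2 ratio of 1.31 (95% counting interval 1.15 to 1.47). Cox7b had 45.3 and 101 (1.15, 0.99 to 1.31), and Atp5o 48.2 and 98.4 (1.03, 0.87 to 1.19). Only 14, 23 and 43 of the 8120 genes compared had a higher ratio than these 3. Sdhd (28.9 and 47.7 CPM, 0.72) and Ndufb10 (57.8 and 87.2, 0.59), subunits of complexes II and I, came next. The lowest were Ndufb2 (81.5 and 65.1 CPM, -0.32), Ndufa13 (191 and 157, -0.28) and Uqcrh (674 and 559, -0.27).

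The same 3 genes stood out in neighbouring gates. In the multipotent gate the log2 ratio was 0.77 for Cox6a1, 1.00 for Cox7b and 0.97 for Atp5o, and in the megakaryocyte-lineage gate 0.96, 0.97 and 0.91. In the B-lineage gate it was 0.18, 0.28 and 0.31, and in the myeloid progenitor gate 0.16, 0.07 and 0.16, with intervals in the latter that include 0. Whether gates differ in this was not tested. Within HSC-gated cells without any division marker Cox6a1 still had 36.7 CPM in 965 naive and 91.0 in 825 Listeria cells (1.31, 1.09 to 1.54), Cox7b 46.4 and 84.7 (0.87) and Atp5o 46.8 and 84.5 (0.85). Of HSC-gated cells, 43 naive and 60 Listeria cells had at least 3 division markers.

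**Figure D5:**
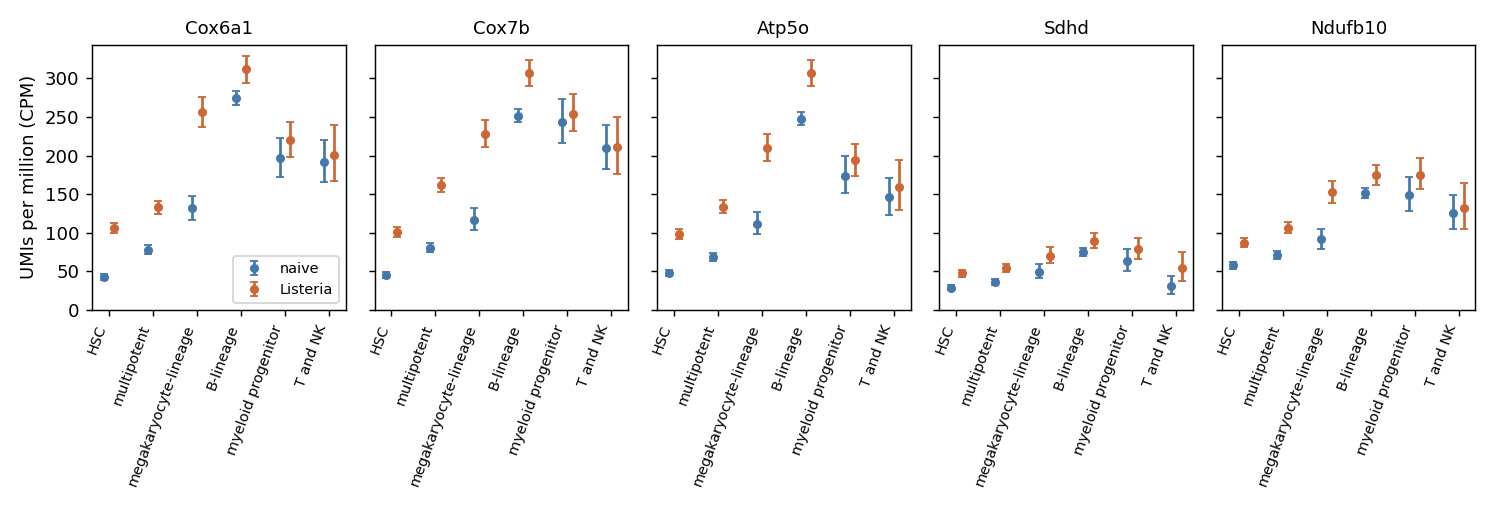
Level (y axis, CPM of summed UMIs) of the 5 nuclear members with the highest Listeria to naive ratio in the HSC gate, in 6 gates (x axis), naive in blue and Listeria in orange, with 95% exact intervals of counting error. For Cox6a1, Cox7b and Atp5o the libraries are far apart in the HSC, multipotent and megakaryocyte-lineage gates (43.1 and 107 CPM for Cox6a1 in the HSC gate) and close in the myeloid progenitor and T and NK gates.

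In the multipotent gate 18 nuclear members were higher and 1 lower, against 19.5% and 8.8% of all genes, with a median of 0.14 against 0.09. Those over 0.5 in log2 besides the 3 were Ndufs6 (0.64), Ndufaf3 (0.61), Sdhd (0.59), Ndufb10 (0.58) and Atp5k (0.53). The one that was lower was Cox6a2 (61.2 and 13.2 CPM). In the B-lineage gate 1 was higher and 1 lower of 82, against 7.98% and 6.22%, and in the megakaryocyte-lineage gate 9 and 1 of 83, against 17.1% and 12.8%. T and NK cells had 17 higher and 4 lower of 83, against 24.8% and 22.1%. Myeloid progenitors had 4 and 11 of 82, against 29% and 17.6%, neutrophil-lineage cells 6 and 26 of 80, against 35.9% and 24.3%, and antigen-presenting cells 8 and 12 of 83, against 31.4% and 22.8%.

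Among mitochondrial members mt-Nd3 was higher in the Listeria library in all 8 gates compared, from 0.19 in neutrophil-lineage to 0.53 in antigen-presenting cells, and stood at 698 and 849 CPM in the HSC gate. mt-Co1 (8484 and 7102 CPM in the HSC gate, -0.26) and mt-Nd5 (538 and 424, -0.34) were lower in all 8. Counting intervals included 0 for mt-Nd3 and mt-Co1 in neutrophil-lineage cells and for mt-Nd5 in T and NK and antigen-presenting cells. Free RNA differed likewise, with mt-Nd3 at 1.45% of mitochondrial UMIs in naive and 1.90% in Listeria free RNA, and mt-Co1 at 17.3% and 15.5%, whereas mt-Nd5 was at 0.705% and 0.823%. The part of free RNA in these differences was not tested, and nearly all windows of mt-Nd3 and mt-Co1 are shared with pseudogenes.

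The promoters of Cox6a1, Cox7b and Atp5o are printed because these had the 3 highest Listeria to naive ratios in the HSC gate, so they were chosen for their values. They are the 250 bases before each RefSeq gene start in GRCm38.p6, read along the gene's strand, with capitals at matches, on either strand, to the core of NRF1, a factor known for nuclear genes of respiration, or its part GCATGCGC, and to CCGGAAG (ETS factors), AAGATGGC (YY1) and GGGCGG (GC box). Cox6a1 lies on the minus strand, its promoter at chr5:115348959-115349208. Cox7b lies on the plus strand at chrX:106015450-106015699, and Atp5o on the minus strand at chr16:91931631-91931880.
Cox6a1: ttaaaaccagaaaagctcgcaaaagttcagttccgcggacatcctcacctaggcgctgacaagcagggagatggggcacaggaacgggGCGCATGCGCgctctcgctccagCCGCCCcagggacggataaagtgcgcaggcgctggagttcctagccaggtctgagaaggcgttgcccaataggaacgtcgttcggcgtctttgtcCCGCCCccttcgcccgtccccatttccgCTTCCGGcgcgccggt
Cox7b: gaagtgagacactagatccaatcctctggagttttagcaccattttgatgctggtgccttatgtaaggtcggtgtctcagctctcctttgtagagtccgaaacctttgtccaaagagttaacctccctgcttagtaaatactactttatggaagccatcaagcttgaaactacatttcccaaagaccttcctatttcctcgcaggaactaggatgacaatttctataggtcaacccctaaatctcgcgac
Atp5o: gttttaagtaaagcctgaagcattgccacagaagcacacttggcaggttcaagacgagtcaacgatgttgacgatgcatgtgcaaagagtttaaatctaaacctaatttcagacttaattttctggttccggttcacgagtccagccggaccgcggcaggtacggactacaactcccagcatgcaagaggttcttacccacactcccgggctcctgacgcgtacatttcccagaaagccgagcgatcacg

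The Cox6a1 promoter held an NRF1 core, 2 GC boxes and an ETS core, and those of Cox7b and Atp5o held none of the 4, so the 3 share no match. Of 90 detected nuclear members 73 matched the promoter table. They are set beside all 27025 genes of that table, which were not limited to detected genes. A gene counted where any of its promoters held the match. The NRF1 core was in 5 members, or 6.85%, against 0.877% of all genes. Its overlapping part GCATGCGC was in 9, or 12.3%, against 2.56%, and the ETS core in 14, or 19.2%, against 7.83%. The GC box was in 29, or 39.7%, against 35.4%, and the YY1 core in 1, or 1.37%, against 1.83%. A match is a description of the letters and not a bound site.

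Paired forms of subunits divided by cell type. Cox6b2 made up 12.2% and 12.3% of the UMIs of Cox6b1 and Cox6b2 together in the naive and Listeria HSC gates, 13.3% and 14.0% in the megakaryocyte gates, 3.98% and 2.73% in the B-lineage gates, and 25% and 27.4% in the small erythroid gate. Atp5g1 made up 19.4% and 20.9% of the c-ring UMIs in the HSC gates, 25.9% and 27.1% in the B-lineage gates and 49.6% and 43.9% in the erythroid gates. These are shares of tags within a family compared between gates, and no order of transcript levels between the forms is read from them. The c-ring shares are also uncertain because 39.9% of Atp5g1 windows and 51.4% of Atp5g2 windows are shared with other genes.

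Other forms were rare. Cox4i2, the form of subunit 4 best known from lung, had 82 UMIs in naive and 91 in Listeria cells, of which the HSC gate held 54.9% and 47.3%, against 3.66% and 1.10% in the B-lineage gate. Its share of Cox4i UMIs in the HSC gate was 0.658% (exact interval 0.480% to 0.879%) and 0.792% (0.574% to 1.07%), and in the B-lineage gate 0.028% and 0.033%. Cox7a1, the heart and muscle form of subunit 7A, had 0.912 and 0.420 CPM in the HSC gates and 4.59 and 5.91 in the B-lineage gates. Cox8a had all UMIs of its family, and 1 UMI of Cox7b2 was found in all.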

How the data were processed

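Single-cell 3' libraries of mouse bone marrow, 1 naive and 1 Listeria, were analysed. Cell Ranger 3.0.2 and mm10 are named, per the submitters' processing notes. The deposited tables hold whole UMI counts, not normalized, for 6794880 listed barcodes a library. Treatment of reads that match several genes, and of strand, is not given in the sources used here. Members, marker lists and pathway lists were chosen with earlier results of these data known.

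Cells had at least 2500 UMIs, 500 genes and at most 10% mt- UMIs. A cell went to the gate with the largest share of markers counted (1 UMI, or 3 UMIs for neutrophil markers), at least 3, and ties were not gated. No doublet caller was run; cells with 3 or more markers in 2 of 5 lineages (50 naive, 9 Listeria) were left ungated, and other doublets may remain. Cells with under 3 markers numbered 1304 and 1383, and ties 102 and 69.

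UMIs were summed per gate and scaled to CPM. Ratios and shares have exact 95% binomial intervals, which cover counting error only. Gates with at least 50 cells in each library (8 gates, 16 sums) were fitted in edgeR 4.0.16 (TMM, filterByExpr, quasi-likelihood test) with the library as a term, and dividing cells likewise. DESeq2 1.42.0 was an alternative, on R 4.3.3. Python 3.11.15 with scipy 1.17.1 gave the rest. The steps were tested on simulated data. Named genes were all mitochondrial members, Sdha to Sdhd, the families Cox4i, Cox6a, Cox6b, Cox7a, Cox7b, Cox8 and Atp5g, and the 3 highest and 3 lowest nuclear members of each comparison; the others named were chosen after their values were seen. The searches for shared windows and motifs, the splits by depth and by division markers and the values without dividing cells were added after seeing the data. Gene positions and transcripts came from GENCODE.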

Additional observations from a re-analysis of the deposited data

Results flagged for a closer look

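The mitochondrial to nuclear ratio moved in opposite directions between the libraries in 2 gates. In the antigen-presenting gate it was 0.19 higher in log2 in Listeria than in naive cells (2.29 and 2.62), and in the HSC gate 0.15 lower (3.74 and 3.38). Each group holds 1 library, and the difference between the gates was not tested. Of antigen-presenting cells 72.1% (naive) and 89.2% (Listeria) lay at the limit of 3 counted markers. Free RNA was 13.1% mitochondrial in the naive and 5.13% in the other library. Subtracting it at 5% or 10% of each cell turned the HSC difference in mitochondrial share from -0.39 to 0.011 or 0.45 points. The ratio between the libraries with free RNA subtracted is not given here. Cells with at least 3 Siglech UMIs numbered 10 of 111 naive and 3 of 120 Listeria cells of the antigen-presenting gate, and their part in it was not tested.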

How the results depend on the processing

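With 1 library a group leaving out a replicate was not possible, and no paired analysis was possible because the labels carry no replicate numbers shared by the groups. Depth limits the rare forms, counts of few members and the erythroid and plasma gates. The scaling alternatives for the pathway lists outside the rule were not run. For each result below the cause of a change was not tested unless the setting itself removed genes or cells. Shares of all genes called under the changed settings are not given in this section, so a changed count does not set the members apart from other genes.

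The HSC gate exceeded the B-lineage gate in mitochondrial share by 1.11 points (naive) and 0.83 (Listeria), and in the log2 ratio by 1.15 and 1.04. The naive share gap was 0.88 with a mitochondrial filter of 5%, 1.16 with 20%, 1.13 from 5000 UMIs, 1.09 as a median over cells, 1.17 and 1.24 with free RNA at 5% and 10% subtracted, and 0.85 without dividing cells. The Listeria share gap was 0.74 at 5%, 0.80 at 20%, 0.78 with no filter, 0.91 at 4 markers, 0.88 and 0.93 with free RNA subtracted, and 0.53 without dividing cells. The naive log2 ratio was 1.09 at 5%, 1.14 with no filter, 1.17 from 5000 UMIs, 1.17 as a median, 1.28 and 1.45 with free RNA subtracted, and 0.91 without dividing cells. The Listeria log2 ratio was 1.01 at 5%, 1.02 at 20%, 1.01 with no filter, 1.08 as a median, 1.10 and 1.16 with free RNA subtracted, and 0.73 without dividing cells.

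The Listeria minus naive share in the HSC gate (-0.39 points) was -0.20 at 5%, -0.47 at 20%, -0.46 with no filter, -0.31 as a median, -0.32 at 4 markers and -0.37 without dividing cells, and reversed to 0.011 and 0.45 with free RNA at 5% and 10% subtracted.

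Over all cells, nuclear members called higher and lower (2 and 3) came to 0 higher with TMM, with size factors and with the 5% filter, 1 from 5000 UMIs, 4 with equal weight for gates, 4 and 5 with no minimum, and 0 and 1 at 1.5-fold. The mitochondrial counts (0 and 1) came to 2 lower with TMM, 1 higher at 5% and from 5000 UMIs, 1 and 0 with equal weights, and 0 lower at 1.5-fold. In the HSC gate the nuclear counts (8 and 1) came to 5 and 3 with TMM and with size factors, 5 and 0 at 1.5-fold, 0 lower at 4 markers and 2 lower without dividing cells. The mitochondrial counts (0 and 2) came to 4 lower with TMM and size factors, 1 and 0 at 4 markers and 0 lower at 1.5-fold. The nuclear median of 0.02 reversed to -0.072 with TMM, -0.087 with size factors and 0.00 (-0.0033) without dividing cells.

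Over the HSC gate, the multipotent counts of nuclear members (5 and 0) were 9 and 1 at 4 markers and with no filter on low counts, 18 and 1 with only the compared gates and 1 higher without the library term; its 1 lower mitochondrial member became 0 with DESeq2 and without that term. B-lineage cells had 1 lower nuclear member without the library term and with no mitochondrial filter, and 3 lower mitochondrial members without that term. Megakaryocyte cells had 1 lower nuclear member with total UMIs and without the term, 7 lower mitochondrial members with DESeq2, 0 without the term, and 1 higher with total UMIs and with only the compared gates. For dividing cells the mitochondrial counts (0 and 1) were 1 and 5 with DESeq2, 1 and 3 with total UMIs, and 0 lower without the term. At 2 division markers 7 were lower, but the gates fitted changed too. The HSC gate came in, and the B-lineage gate, with 49 other Listeria cells, fell out. In B-lineage cells mt-Atp8 and mt-Nd4l reversed to -0.031 and -0.035 with DESeq2, -0.030 and -0.034 with size factors, -0.054 and -0.057 with total UMIs and -0.13 and -0.15 without dividing cells. mt-Co2, mt-Nd2 and mt-Nd3 passed as lower with DESeq2 (-0.24, -0.25 and -0.23) and with total UMIs (-0.26, -0.27 and -0.25), mt-Co2 with size factors (-0.24) and mt-Nd2 without dividing cells (-0.29), and Uqcrh did not pass at 4 markers (-0.23). With total UMIs neutrophil-lineage cells went from 43 nuclear members higher and 8 lower to 21 and 32 (median 0.47 to -0.14), myeloid progenitors from 1 higher and 1 lower mitochondrial member to 0 and 5 (0 and 2 with size factors) and from 1 to 2 lower nuclear members, and antigen-presenting cells from 3 lower to 5. For the gates other than B-lineage, megakaryocyte-lineage and multipotent, only scaling was varied. The other results tabulated for those 3 gates, for dividing cells and between libraries kept their direction and side of the threshold, or a count within 1.5 times.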
